A study of Arabidopsis thaliana with 12 samples.

Results

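The loci described here are the 283 Arabidopsis thaliana genes that the authors' deposited tables list both for a line overexpressing LBD29 and for a line overexpressing MYB2, each against the wild type. Every locus named in the gene column of both tables was taken. There are 802 loci listed for LBD29-OE and 1271 for MYB2-OE, so the shared loci stand among 1790 listed for either line and 2424 listed anywhere in the series. The values are FPKM, a level scaled for transcript length and for library size.

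LBD29-OE carries Pro35S:LBD29-6Gly, MYB2-OE carries Pro35S:MYB2, and Col is the untransformed Col-0 wild type. Pro35S is a viral promoter that is active in most plant cells, so both factors were made outside the cells that normally make them. All plants were 8 days old, were kept in darkness on 1/2 MS medium, and gave their roots for RNA, with 3 libraries per genotype. How many independent lines stand behind a genotype is not given in the labels, and nothing there says that the 3 libraries came from separate cultures, so a p-value measures only the spread between these libraries. In whole roots, fewer cells of a type and less RNA per cell cannot be told apart. Of the 24 gene lists used, those that mark xylem, seed, root cap, phloem, endodermis and suberin, and root hair have no locus in both tables, and the tables list only called loci, so the root origin of the samples could not be checked beyond the label.

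LBD29 is a LOB-domain transcription factor that acts downstream of auxin response factors when pericycle cells begin a lateral root. It also acts in callus formation from root explants. MYB2 is an R2R3-type MYB factor known for responses to drought, salt and abscisic acid and for the control of whole-plant senescence. Overexpressing each factor and reading the roots side by side asks which genes change under both and which genes separate them.

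One library of each line stood apart, in many loci for MYB2-OE and in genes of green tissue for LBD29-OE. MYB2-OE replicate 2 had 109 FPKM of LBD29 transcript, against 1.82 and 1.93 FPKM in MYB2-OE replicates 1 and 3. Among the 217 loci with a group mean of at least 1 FPKM, it was the MYB2-OE library nearest to the LBD29-OE mean in 119 loci (54.8%) and the one nearest to the Col mean in 132 loci (60.8%). LBD29-OE replicate 2 was high in genes of green tissue. The 4 genes of an 11-gene green marker list that are listed for both lines summed to 0.31, 130.01 and 2.18 FPKM in LBD29-OE replicates 1, 2 and 3, to 2.47, 5.35 and 1.02 FPKM in MYB2-OE, and to 8.78, 8.94 and 5.92 FPKM in Col. The LBD29-OE table lists 3 further markers, CAB2, higher in that line, and RBCS1A and PORB, lower in it, and all 7 summed to 11.6, 259 and 14.04 FPKM in LBD29-OE and to 102, 132 and 129.98 FPKM in Col. Replicate 2 was the highest LBD29-OE library in 6 of the 7, all but PORB. Results are therefore given with and without replicate 2 of both lines where it matters.

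The transgene transcripts followed the labels apart from that library. LBD29 had 558, 603 and 477 FPKM in LBD29-OE, against 3.08, 2.55 and 3.04 FPKM in Col. MYB2 had 636, 375 and 585 FPKM in MYB2-OE, against 1.01, 0.48 and 0.59 FPKM in Col. MYB2 is not among the 283 loci, since the authors' deposited table gives it a log2 fold change of -0.42 in LBD29-OE (Q = 0.104). The counting could not separate a transgene's transcript from the plant's own.

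Promoters of 3 loci are printed because each stands for one of the patterns described: a NAC and a bHLH factor that separate the lines, and a seed-type protective protein higher in both. Each is the 300 bases upstream of the annotated gene start, 5′ to 3′ on the gene's strand, from the RefSeq TAIR10.1 assembly. NAC047 is chr3:1063235-1063534 on the minus strand, and bHLH11 is chr4:17054926-17055225 on the plus strand. LEA7 is chr1:19619424-19619723 on the plus strand. Capitals mark TAACTG, a MYB2 recognition sequence, in NAC047, and CACGTG, the G-box, in bHLH11 and LEA7.
NAC047: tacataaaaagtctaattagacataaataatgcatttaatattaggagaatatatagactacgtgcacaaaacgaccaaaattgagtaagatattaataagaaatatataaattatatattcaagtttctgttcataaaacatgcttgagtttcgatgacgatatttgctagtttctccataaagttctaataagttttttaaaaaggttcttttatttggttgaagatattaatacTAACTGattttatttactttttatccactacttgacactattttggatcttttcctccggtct
bHLH11: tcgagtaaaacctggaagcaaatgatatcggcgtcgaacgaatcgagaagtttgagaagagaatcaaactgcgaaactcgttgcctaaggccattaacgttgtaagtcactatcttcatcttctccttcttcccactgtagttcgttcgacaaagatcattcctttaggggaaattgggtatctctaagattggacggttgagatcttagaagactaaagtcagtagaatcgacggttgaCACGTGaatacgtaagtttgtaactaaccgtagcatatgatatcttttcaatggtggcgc
LEA7: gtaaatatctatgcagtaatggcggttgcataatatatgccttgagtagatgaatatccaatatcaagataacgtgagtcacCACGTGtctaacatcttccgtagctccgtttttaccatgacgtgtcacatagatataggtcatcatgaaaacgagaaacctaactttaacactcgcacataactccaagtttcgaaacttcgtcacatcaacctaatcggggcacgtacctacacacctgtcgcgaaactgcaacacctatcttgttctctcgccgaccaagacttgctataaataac

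The 6 motifs were searched on both strands of this window in 27437 gene promoters and in 282 of the 283 loci, and the windows may overlap a neighbouring gene. AAAATATCT, the evening element of clock-regulated promoters, lay in 11 of 159 promoters of loci lower in both lines (6.92%), against 2.79% of all promoters. The G-box CACGTG lay in 11 of 85 promoters of loci higher in both (12.9%), against 7.09% of all. The W-box TTGACC, a core bound by WRKY factors, lay in 3.53% of promoters of loci higher in both and in 15.7% of those lower in both, against 14.0% of all. TAACTG lay in 3 of the 27 promoters of loci lower in LBD29-OE and higher in MYB2-OE (11.1%), in 5.88% of those of loci higher in both and in 6.29% of those lower in both, against 9.85% of all. CTAACCA, another MYB sequence, lay in 3.55% of the promoters of the shared loci, against 3.88% of all. GCGGCG, a LOB-domain motif, lay in 1 of the 282, against 1.97% of all. These shares describe the windows and were not tested.

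According to the authors' deposited calls, 86 of the 283 loci were higher in both lines than in Col, 159 were lower in both, 27 were lower in LBD29-OE and higher in MYB2-OE, and 11 were higher in LBD29-OE and lower in MYB2-OE. So 245 loci had the same direction and 38 opposite directions. Both comparisons use the same 3 Col libraries, so these counts are given as the selection fixes them and are not read as a likeness of the lines. Median log2 fold changes in the deposited tables were 1.57 in LBD29-OE and 1.77 in MYB2-OE for loci higher in both, and -1.59 and -1.58 for loci lower in both. Without replicate 2 of both lines, 61 of the 86 loci higher in both and 134 of the 159 lower in both kept a 2-fold change in each line, and 25 in each class did not. All 3 libraries of each line lay clear of all 3 Col libraries, on the side of the call, in 223 loci (78.8%). Levels were low in 66 loci, whose highest group mean was under 1 FPKM, and 70 loci overlap another annotated gene.

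**Figure D1:**
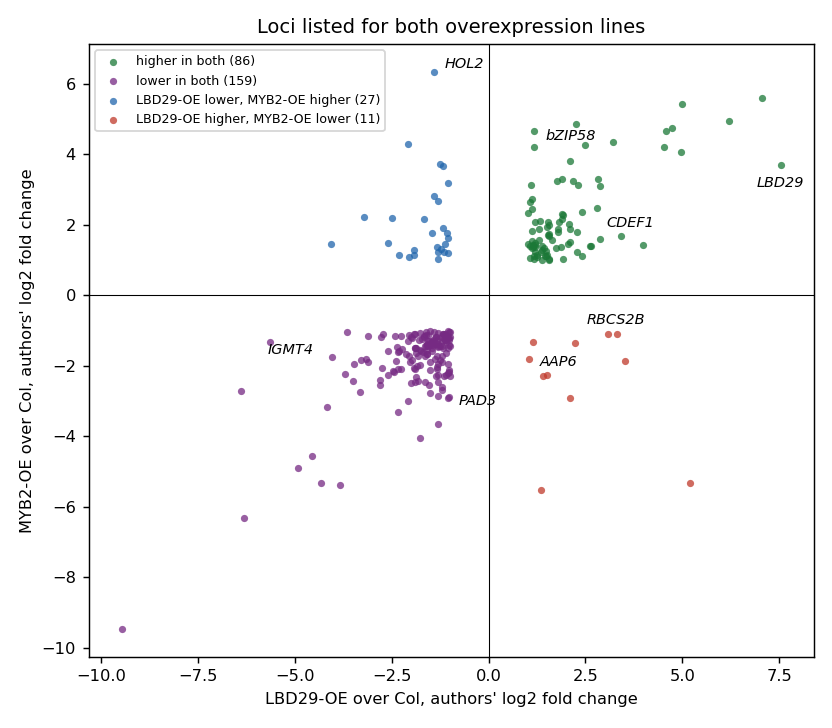
Log2 fold change against Col in the authors' deposited tables for each of the 283 loci, LBD29-OE on the horizontal and MYB2-OE on the vertical axis, coloured by direction class with the number of loci. The 86 and 159 same-direction loci fill the upper right and lower left, and no point lies between -1 and 1 on either axis because the tables list only folds beyond 1 on the log2 scale.

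Entry into the tables needed an absolute log2 above 1 and a Q under 0.001. AT3G53960, just inside, had -1.002 in LBD29-OE and -2.29 in MYB2-OE in the authors' deposited tables. UGT72B3, just outside, had -0.99 in LBD29-OE and -2.42 in MYB2-OE in the MYB2-OE table. The MYB2-OE table repeats an LBD29-OE log2 for 945 of the 988 loci it lists alone, of which 564 were under 0.5 in size, 312 from 0.5 to 1, and 69 at least 1.

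The 27 loci lower in LBD29-OE and higher in MYB2-OE separated the lines in every library. Each of them had all MYB2-OE libraries above all LBD29-OE libraries, while over the 283 loci the lines did not overlap in 92 (32.5%), with MYB2-OE above in 67 (23.7%) and LBD29-OE above in 25 (8.83%). Of the 27 loci, 24 had both lines clear of Col, and 25 kept their direction with at least a 2-fold change in each line without replicate 2 of both lines. Their selection fixes the order of the line means, so the values are a description. They include enzymes, transporters and regulators.

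HOL2, a thiol methyltransferase of sulfur compounds, had 0.31, 0.47 and 0.13 FPKM in LBD29-OE, 68.3, 54.0 and 84.0 FPKM in MYB2-OE, and 0.56, 0.70 and 1.21 FPKM in Col. It was high in every MYB2-OE library and lowest in LBD29-OE, with no overlap between any of the groups. OCT1, an organic cation and carnitine transporter, had 0.70, 0.65 and 0.72 FPKM in LBD29-OE, 24.0, 19.6 and 22.6 FPKM in MYB2-OE, and 1.95, 1.64 and 1.35 FPKM in Col. OSM34, an osmotin-like protein of the pathogenesis-related class, had 12.7, 21.2 and 22.1 FPKM in LBD29-OE, 310.1, 246 and 484 FPKM in MYB2-OE, and 37.2, 51.4 and 59.4 FPKM in Col. In both genes the 3 groups lay apart, with Col between the lines.

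Regulators of the same class included a pair of NAC factors. NAC6 (AT5G39610, also known as ORE1), a promoter of leaf senescence, had 2.09, 2.27 and 1.66 FPKM in LBD29-OE, 17.97, 14.7 and 18.7 FPKM in MYB2-OE, and 3.21, 3.86 and 6.63 FPKM in Col. NAC047, whose promoter with TAACTG is printed above, had 1.81, 2.36 and 3.38 FPKM in LBD29-OE, 17.8, 14.6 and 15.2 FPKM in MYB2-OE, and 5.45, 5.11 and 7.46 FPKM in Col. Col lay between the lines in both NAC genes. bHLH11, a negative regulator of iron uptake, had 3.29, 3.34 and 3.45 FPKM in LBD29-OE, 18.23, 12.4 and 16.6 FPKM in MYB2-OE, and 6.18, 7.43 and 7.10 FPKM in Col. TCH3, a calmodulin-like protein induced by touch, had 4.08, 4.24 and 4.50 FPKM in LBD29-OE, 40.1, 17.43 and 23.2 FPKM in MYB2-OE, and 8.94, 8.17 and 9.21 FPKM in Col. In these 4 regulators MYB2-OE replicate 2 was the lowest MYB2-OE library, and it still lay above every Col library. bHLH11, OCT1 and TCH3 overlap other annotated genes, so their reads are less certain. The overlap is 196 bases in bHLH11 and up to 827 bases in TCH3, but only 8 bases in OCT1.

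The other members of the class were chosen for mention after their values were seen. AT4G16260, a glycosyl hydrolase, had the highest level of the 27, with 84.8, 104 and 87.1 FPKM in LBD29-OE, 684, 426 and 868 FPKM in MYB2-OE, and 185, 184 and 215 FPKM in Col. AT5G19890, a peroxidase, had 0.21, 0.14 and 0.24 FPKM in LBD29-OE, 17.9, 11.6 and 19.1 FPKM in MYB2-OE, and 0.94, 0.69 and 0.83 FPKM in Col. CXE17, a carboxylesterase, had 0.12, 0.31 and 0.34 FPKM in LBD29-OE, 7.88, 5.88 and 8.12 FPKM in MYB2-OE, and 0.59, 0.58 and 0.55 FPKM in Col. All 3 had Col between the lines with no overlap. The phosphate transporter PHT1;9, the squalene epoxidase SQE6 and the methyltransferase CCOAMT belong here too, each under 1 FPKM in every LBD29-OE and Col library. GER2 and AT5G39160, germin-like genes of a cluster of close copies on chromosome 5, are uncertain because reads could be split between copies.

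**Figure D2:**
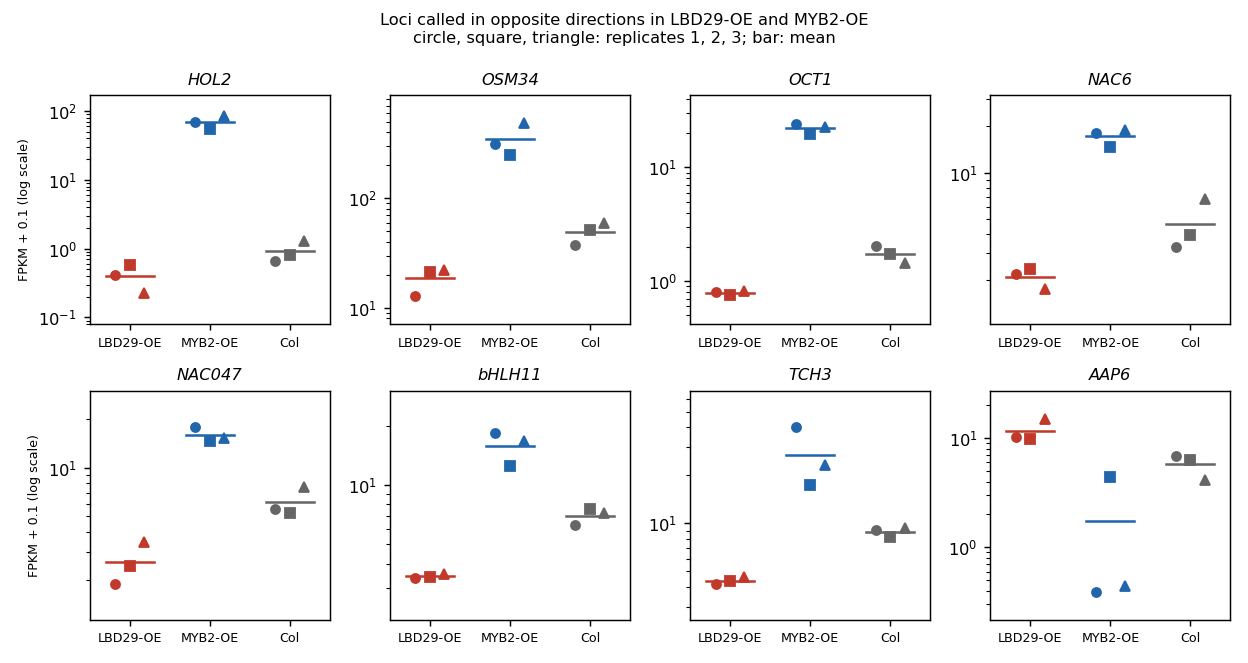
FPKM + 0.1 on a log scale in each library for 7 loci lower in LBD29-OE and higher in MYB2-OE and for AAP6, which has the reverse direction, with replicates 1, 2 and 3 as circle, square and triangle and the mean as a bar. In the first 7 panels Col lies between the lines. In AAP6 the square of MYB2-OE, at 4.26 FPKM, lies within the range of Col.

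Of the 11 loci higher in LBD29-OE and lower in MYB2-OE, 3 kept that pattern without replicate 2 of both lines. They are AAP6, and AT2G38390 and CUC3, which were picked out after their values were seen. AAP6, an amino acid permease, had 10.2, 9.77 and 14.9 FPKM in LBD29-OE, 0.29, 4.26 and 0.34 FPKM in MYB2-OE, and 6.75, 6.21 and 4.02 FPKM in Col. AT2G38390, a peroxidase, had 244, 358 and 503 FPKM in LBD29-OE, 44.0, 97.7 and 57.1 FPKM in MYB2-OE, and 185, 168 and 142 FPKM in Col. LBD29-OE lay above MYB2-OE in every library of both, and MYB2-OE replicate 2 was the highest MYB2-OE library. CUC3, a NAC factor of organ boundaries, had 0.62, 1.15 and 1.64 FPKM in LBD29-OE, 0, 0.20 and 0.07 FPKM in MYB2-OE, and 0.63, 0.39 and 0.26 FPKM in Col.

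The other 8 loci of this class had a high value in LBD29-OE replicate 2 alone. RBCS3B, a small subunit of Rubisco, had 0.05, 52.6 and 1.30 FPKM in LBD29-OE, 1.46, 2.56 and 0.44 FPKM in MYB2-OE, and 3.97, 3.51 and 3.51 FPKM in Col. CAB3, a chlorophyll-binding protein, had 0.20, 28.9 and 0.36 FPKM in LBD29-OE, 0.51, 0.57 and 0.30 FPKM in MYB2-OE, and 0.88, 1.58 and 0.50 FPKM in Col. Without replicate 2, LBD29-OE lay below Col in both genes. RBCS2B and RBCS1B, further Rubisco subunits of the same cluster on chromosome 5 and so uncertain as single genes, had 32.0 and 16.5 FPKM in LBD29-OE replicate 2, and at most 0.32 FPKM in the other LBD29-OE libraries. Chosen after their values were seen, the carbonic anhydrase CA1 and the myrosinase TGG1 had 15.8 and 18.7 FPKM there, and LHB1B1 and GER3 had 4.66 and 2.74 FPKM. Without replicate 2 of both lines 7 of the 11 loci fell into another direction class and 1 was under 2-fold in a line.

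**Figure D3:**
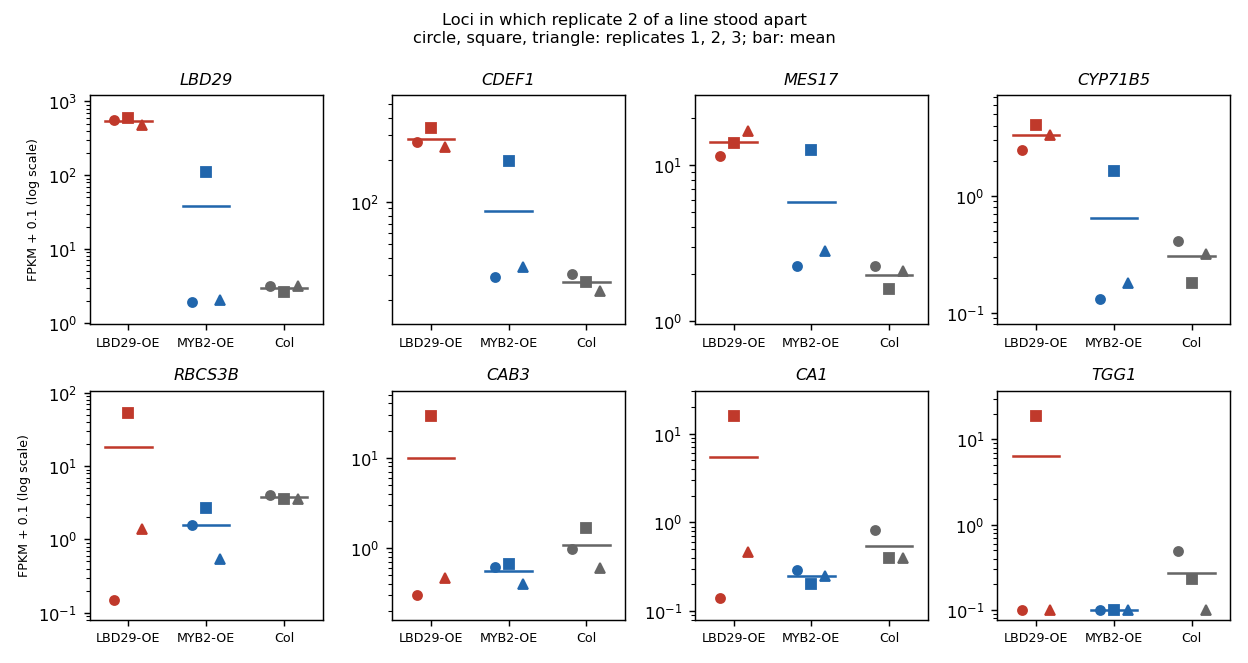
FPKM + 0.1 on a log scale in each library for 4 loci in which MYB2-OE replicate 2 stood above the other MYB2-OE libraries (upper row) and 4 in which LBD29-OE replicate 2 stood above the other LBD29-OE libraries (lower row), with symbols as in the plot of opposite loci. LBD29 had 109 FPKM and CDEF1 196 FPKM in MYB2-OE replicate 2, and RBCS3B had 52.6 FPKM in LBD29-OE replicate 2.

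To find genes that separate the factors among those with a shared direction, LBD29-OE was set directly against MYB2-OE with limma on log2(FPKM + 1), a scale that understates the change of low genes. At a Benjamini-Hochberg adjusted p under 0.05 over the 283 loci, 57 were called (20.1%), 11 of them higher (3.89%) and 46 lower (16.3%) in LBD29-OE than in MYB2-OE. Of these, 30 are among the 38 opposite loci, whose selection fixes their direction against Col in each line, so their calls are not read as a test. Because the adjustment ran over all 283 loci, their small p-values also ease the threshold for the same-direction loci. An adjustment over the 245 same-direction loci alone was not run, so calls near the threshold are the least certain. Among the 245 same-direction loci 27 were called (11.0%), 8 higher and 19 lower in LBD29-OE, and 58 had an unadjusted p under 0.05. The 8 include LBD29, the transgene of LBD29-OE. Without replicate 2 of both lines the numbers were 14 higher, 7 of them among the earlier 8, and 19 lower, 18 of them among the earlier 19. The 8 became 19 without MYB2-OE replicate 2 and 2 to 5 without any other single library, and the 19 became 12 without MYB2-OE replicate 1.

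The largest difference among same-direction loci was LBD29 itself, which was 5.81 ± 1.2 higher in LBD29-OE than in MYB2-OE on that log2 scale (SE; limma, adjusted p = 0.00688). As the transgene of LBD29-OE it had to differ, so its call is not read as a test. Its place among loci higher in both lines rested on 1 library, as its log2 ratio to Col in MYB2-OE was -0.60 without replicate 2. CDEF1, a cutinase-like enzyme of the cuticle that also acts where lateral roots emerge, had 267, 338 and 249 FPKM in LBD29-OE, 28.8, 196 and 34.0 FPKM in MYB2-OE, and 30.7, 26.7 and 22.9 FPKM in Col. LBD29-OE lay above MYB2-OE in every library, by 2.26 ± 0.62 (SE; limma, adjusted p = 0.0303). Without replicate 2 the log2 ratio of MYB2-OE to Col was 0.23.

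MES17, a methyl esterase that can release auxin from its methyl ester, had 11.3, 13.8 and 16.4 FPKM in LBD29-OE, 2.17, 12.3 and 2.73 FPKM in MYB2-OE, and 2.15, 1.52 and 1.99 FPKM in Col. The gene overlaps another annotated gene by 103 bases. The lines overlapped only through MYB2-OE replicate 2, and the difference of 1.44 ± 0.48 was not called (SE; limma, adjusted p = 0.0691), whereas it was 2.09 ± 0.25 without replicate 2 of both lines (adjusted p = 3.97e-04). CYP71B5, a cytochrome P450 named after its values were seen, had 2.37, 3.97 and 3.25 FPKM in LBD29-OE, 0.03, 1.53 and 0.08 FPKM in MYB2-OE, and 0.31, 0.08 and 0.22 FPKM in Col. LBD29, CDEF1, MES17 and CYP71B5 thus had the same library high in MYB2-OE, and in all 4 the log2 ratio of MYB2-OE to Col was under 1 without it.

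Of the 86 loci higher in both lines, 16 were lower in LBD29-OE than in MYB2-OE in the direct comparison and 4 were higher, LBD29 among them. Over all 245 same-direction loci 19 were lower and 8 higher, and over all 283 loci 16.3% were lower and 3.89% higher. bZIP58, a basic leucine zipper factor, had 6.42, 7.49 and 4.0 FPKM in LBD29-OE, 60.8, 33.9 and 50.4 FPKM in MYB2-OE, and 2.2, 3.09 and 2.58 FPKM in Col. The difference of LBD29-OE minus MYB2-OE was -2.82 ± 0.27 on the log2 scale (SE; limma, adjusted p = 4.73e-05), with the lines and Col all apart. Without replicate 2, bZIP58 was under 2-fold above Col in LBD29-OE. OFP3, an ovate family repressor, had 6.72, 7.04 and 6.30 FPKM in LBD29-OE, 13.8, 10.2 and 12.7 FPKM in MYB2-OE, and 2.97, 3.11 and 2.62 FPKM in Col, a difference of -0.77 ± 0.16 (limma, adjusted p = 0.00651). IDA, the peptide that triggers floral abscission and cell separation over lateral root primordia, was low in all groups, at 0.17, 0.61 and 0.66 FPKM in LBD29-OE, 1.5, 1.17 and 1.18 FPKM in MYB2-OE, and 0.11, 0.06 and 0.22 FPKM in Col. It differed by -0.64 ± 0.15 (limma, adjusted p = 0.0136), and LBD29-OE replicate 1 lay within the range of Col.

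Chosen after their values were seen, SPL3, a squamosa promoter-binding factor of the vegetative phase change, had 2.19, 1.90 and 1.51 FPKM in LBD29-OE, 9.37, 5.63 and 8.11 FPKM in MYB2-OE, and 0.89, 0.63 and 1.12 FPKM in Col. CRK18, a cysteine-rich receptor-like kinase, had 0.54, 0.94 and 1.08 FPKM in LBD29-OE, 5.72, 4.50 and 5.24 FPKM in MYB2-OE, and 0.17, 0.26 and 0.11 FPKM in Col. Their differences were -1.58 and -1.74 (limma, adjusted p = 3.71e-04 and 4.01e-05), and in both genes the 3 groups did not overlap. SPL3 overlaps another annotated gene over most of its length, so its reads are uncertain.

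Among the 159 loci lower in both lines, 4 were higher and 3 lower in LBD29-OE than in MYB2-OE, against 8 and 19 among all 245 same-direction loci. Over all 283 loci the shares were 3.89% higher and 16.3% lower. PAD3, the cytochrome P450 that completes camalexin synthesis, had 4.77, 4.88 and 5.46 FPKM in LBD29-OE, 0.34, 3.29 and 0.53 FPKM in MYB2-OE, and 10.6, 9.75 and 10.9 FPKM in Col. All groups lay apart, and LBD29-OE was 1.55 ± 0.38 higher than MYB2-OE (SE; limma, adjusted p = 0.0181) with all libraries and 2.09 ± 0.20 higher without replicate 2 of both lines (adjusted p = 1.19e-04). IGMT4, an indole glucosinolate methyltransferase, had the other order, with 1.01, 1.47 and 0.19 FPKM in LBD29-OE, 5.73, 4.43 and 2.59 FPKM in MYB2-OE, and 11.2, 14.3 and 18.1 FPKM in Col. It differed by -1.49 ± 0.33 (limma, adjusted p = 0.0104). PUP7, a purine permease-type transporter, had 1.34, 1.53 and 1.84 FPKM in LBD29-OE, 6.67, 4.43 and 3.32 FPKM in MYB2-OE, and 10.4, 10.6 and 11.5 FPKM in Col, a difference of -1.14 ± 0.21 (limma, adjusted p = 0.00448). PUP7 overlaps AT4G18203, which was also lower in both, so these loci are not independent counts. AT1G26250, an extensin-like cell wall protein named after its values were seen, completes the 3 with a difference of -2.29 ± 0.25 (adjusted p = 1.34e-04), and it too overlaps another annotated gene over most of its length.

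**Figure D4:**
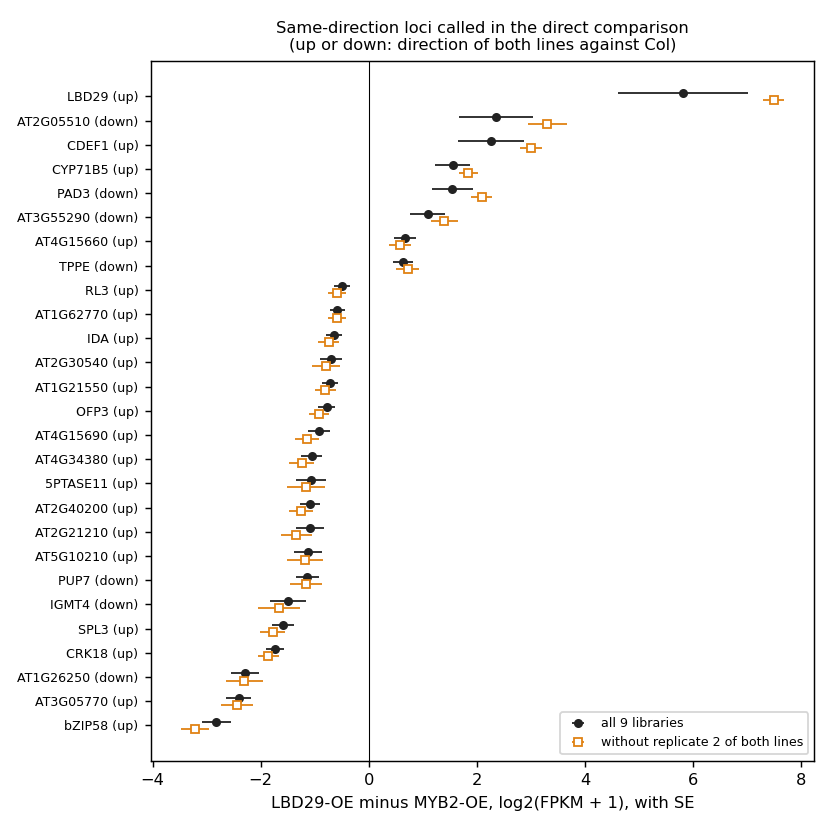
Difference of LBD29-OE minus MYB2-OE on the log2(FPKM + 1) scale with its SE for the 27 same-direction loci called by limma, with all 9 libraries (filled) and without replicate 2 of both lines (open), marked up or down by their direction against Col. The 8 loci right of 0 are higher in LBD29-OE and the 19 left of 0 are lower. LBD29, the transgene of LBD29-OE, has a difference of 5.81 with all libraries and 7.49 without replicate 2.

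Shared functions were read from the gene lists, which were written with earlier results of these data known, and no list was tested as a set. Over all 283 loci the median log2 in the deposited tables was -1.24 in LBD29-OE and -1.17 in MYB2-OE. For camalexin and indole glucosinolates, sulfur-rich and indole defence compounds, 6 of 22 matched genes were listed for both lines and all 6 were lower in both, as were 56.2% of the 283 loci, with medians of -1.94 in LBD29-OE and -1.59 in MYB2-OE. They are PAD3, CYP71A12, CYP81F2, IGMT1, IGMT3 and IGMT4, and 2 of the 6 were called in the direct comparison, against 11.0% of the same-direction loci.

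IGMT1 was the most abundant of them, with 105, 123 and 59.9 FPKM in LBD29-OE, 91.8, 100.5 and 56.0 FPKM in MYB2-OE, and 211, 202 and 255 FPKM in Col. IGMT3 had 37.5, 47.8 and 29.8 FPKM in LBD29-OE, 71.2, 51.3 and 38.0 FPKM in MYB2-OE, and 132, 112 and 106 FPKM in Col. The lines overlapped each other and lay below Col in both genes. Both lines were clear of Col in 133 of the 159 loci lower in both. IGMT1, IGMT3 and IGMT4 are close copies side by side on chromosome 1, so reads could be split between them. CYP81F2, which hydroxylates the indole glucosinolate ring ahead of these methyltransferases, had 0.74, 0.61 and 0.85 FPKM in LBD29-OE, 1.46, 1.68 and 1.66 FPKM in MYB2-OE, and 2.18, 4.14 and 4.25 FPKM in Col. CYP71A12, an earlier camalexin enzyme, was under 1 FPKM in every library of both lines, against 0.83, 2.39 and 2.78 FPKM in Col.

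Of 20 matched iron deficiency genes 3 were listed for both lines and were lower in both, as were 56.2% of the 283 loci. In all, 4 were listed for LBD29-OE and 6 for MYB2-OE. The 3 had medians of -1.67 in LBD29-OE and -1.18 in MYB2-OE. The list holds 25 names, and FIT, IMA1, IMA2, IMA3 and S8H were not matched, so the count of 3 is a lower limit. AT1G47400 and AT3G12900, also known as IMA1 and S8H, were lower in both lines. Their log2 fold changes were -1.32 and -1.89 in LBD29-OE and -2.25 and -1.49 in MYB2-OE. IRT1, the main iron transporter of the root epidermis, had 47.5, 60.6 and 42.7 FPKM in LBD29-OE, 89.3, 73.3 and 55.1 FPKM in MYB2-OE, and 151, 150.2 and 185 FPKM in Col. bHLH39, a factor that partners FIT in the iron deficiency response, had 3.43, 5.85 and 3.78 FPKM in LBD29-OE, 8.53, 8.16 and 6.50 FPKM in MYB2-OE, and 11.5, 15.8 and 25.3 FPKM in Col. CYP82C4, which makes the iron-mobilizing coumarin sideretin, had 4.27, 6.51 and 9.38 FPKM in LBD29-OE, 9.93, 6.85 and 3.61 FPKM in MYB2-OE, and 19.5, 15.1 and 18.6 FPKM in Col. Every library of both lines lay below every Col library in the 3 genes, as it did in 133 of the 159 loci lower in both. None of the 3 was called between the lines, against 11.0% of the same-direction loci. The smallest limma adjusted p among them was 0.131, for bHLH39. bHLH11, the negative regulator in this pathway, had opposite directions in the lines, as given above.

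Of 28 matched circadian clock genes 3 were listed for both lines, with 1 higher and 2 lower. PRR9, a morning repressor, had 2.75, 3.25 and 1.67 FPKM in LBD29-OE, 3.33, 1.54 and 1.73 FPKM in MYB2-OE, and 0.92, 0.94 and 0.91 FPKM in Col. ELF4, an evening complex subunit, had 39.2, 38.0 and 30.2 FPKM in LBD29-OE, 42.4, 33.0 and 40.0 FPKM in MYB2-OE, and 83.8, 79.0 and 125 FPKM in Col. JMJD5, a histone demethylase-type protein of the evening phase, had 4.88, 4.77 and 5.29 FPKM in LBD29-OE, 5.35, 4.96 and 6.09 FPKM in MYB2-OE, and 15.04, 17.5 and 28.1 FPKM in Col. In each gene both lines lay on one side of Col, as they did in 223 of the 283 loci (78.8%). The lines overlapped each other in all 3 genes, while over the 283 loci they did not overlap in 92 (32.5%). The time of day at harvest is not given in the labels.

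A few nitrate and water-stress genes were among those higher in both lines, and a few water-stress genes were lower in both. NIA1, a nitrate reductase, had 29.7, 46.1 and 136 FPKM in LBD29-OE, 154, 67.7 and 87.8 FPKM in MYB2-OE, and 34.4, 20.6 and 17.57 FPKM in Col. It was the only one of 23 matched nitrate and nitrogen genes listed for both, and LBD29-OE replicate 1 lay within the range of Col. BT2, a BTB and TAZ domain regulator that responds to nitrate and sugar, had 94.1, 134 and 63.2 FPKM in LBD29-OE, 56.8, 96.4 and 80.3 FPKM in MYB2-OE, and 27.9, 36.4 and 42.7 FPKM in Col. Both lines lay above Col, and without replicate 2 the log2 ratio of MYB2-OE to Col was 0.94.

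RAB18, a dehydrin induced by abscisic acid, was the only one of 24 matched abscisic acid and dehydration genes listed for both, with 2.86, 2.28 and 7.12 FPKM in LBD29-OE, 1.53, 2.25 and 1.43 FPKM in MYB2-OE, and 1.21, 0.49 and 0.60 FPKM in Col. Without replicate 2 its log2 ratio of MYB2-OE to Col was 0.87, under 2-fold. LEA7, a late embryogenesis abundant protein that protects dried cells, had 9.95, 9.78 and 21.4 FPKM in LBD29-OE, 14.0, 7.69 and 7.90 FPKM in MYB2-OE, and 2.99, 3.48 and 2.03 FPKM in Col. Further late embryogenesis or related loci higher in both, put together after their values were seen, are AT3G17520, AT5G66780 and AT1G04560. AT3G17520 had 0.53 FPKM in MYB2-OE replicate 3, within the Col range of 0.26 to 0.64 FPKM. AT1G04560 was low, at most 0.85 FPKM in MYB2-OE and 0.06 FPKM in Col. LBD29-OE replicate 3 was the highest LBD29-OE library in NIA1, RAB18, LEA7 and those 3 loci. LEA7 and RAB18 overlap other annotated genes. PYL6, an abscisic acid receptor, was lower in both lines, with 6.75, 6.70 and 5.17 FPKM in LBD29-OE, 5.37, 7.69 and 7.98 FPKM in MYB2-OE, and 17.42, 19.3 and 26.2 FPKM in Col. PYL12 and DREB2C were also lower in both. By the deposited annotation, response to water deprivation stood for 2.82% of loci higher in both and 2.80% of those lower in both, against 2.90% of loci listed for either line. Response to abscisic acid stood for 8.45% and 4.20%, against 3.87%. These shares were not tested.

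Glutaredoxins, small thiol enzymes, formed another set of same-direction loci, also put together after their values were seen. AT4G15660, AT4G15680, AT4G15690, AT2G30540 and ROXY2 were higher in both, while AT1G06830 and GRX480 were lower in both. ROXY2 had 4.06, 5.31 and 4.18 FPKM in LBD29-OE, 4.85, 4.57 and 4.47 FPKM in MYB2-OE, and 1.27, 1.55 and 2.39 FPKM in Col. AT2G30540 had 4.48, 4.23 and 3.31 FPKM in LBD29-OE, 7.0, 6.35 and 7.87 FPKM in MYB2-OE, and 0.36, 0.92 and 1.12 FPKM in Col. All libraries of both lines lay above Col in these genes, as they did in 65 of the 86 loci higher in both. The first 3 loci are close copies within one cluster on chromosome 4. By the annotation in the deposited tables, cell redox homeostasis stood for 5 of 71 annotated loci higher in both (7.04%). It also stood for 3 of 143 annotated loci lower in both (2.098%), against 0.773% of annotated loci in either table. The shares were not tested, and they may count the glutaredoxins named above again.

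**Figure D5:**
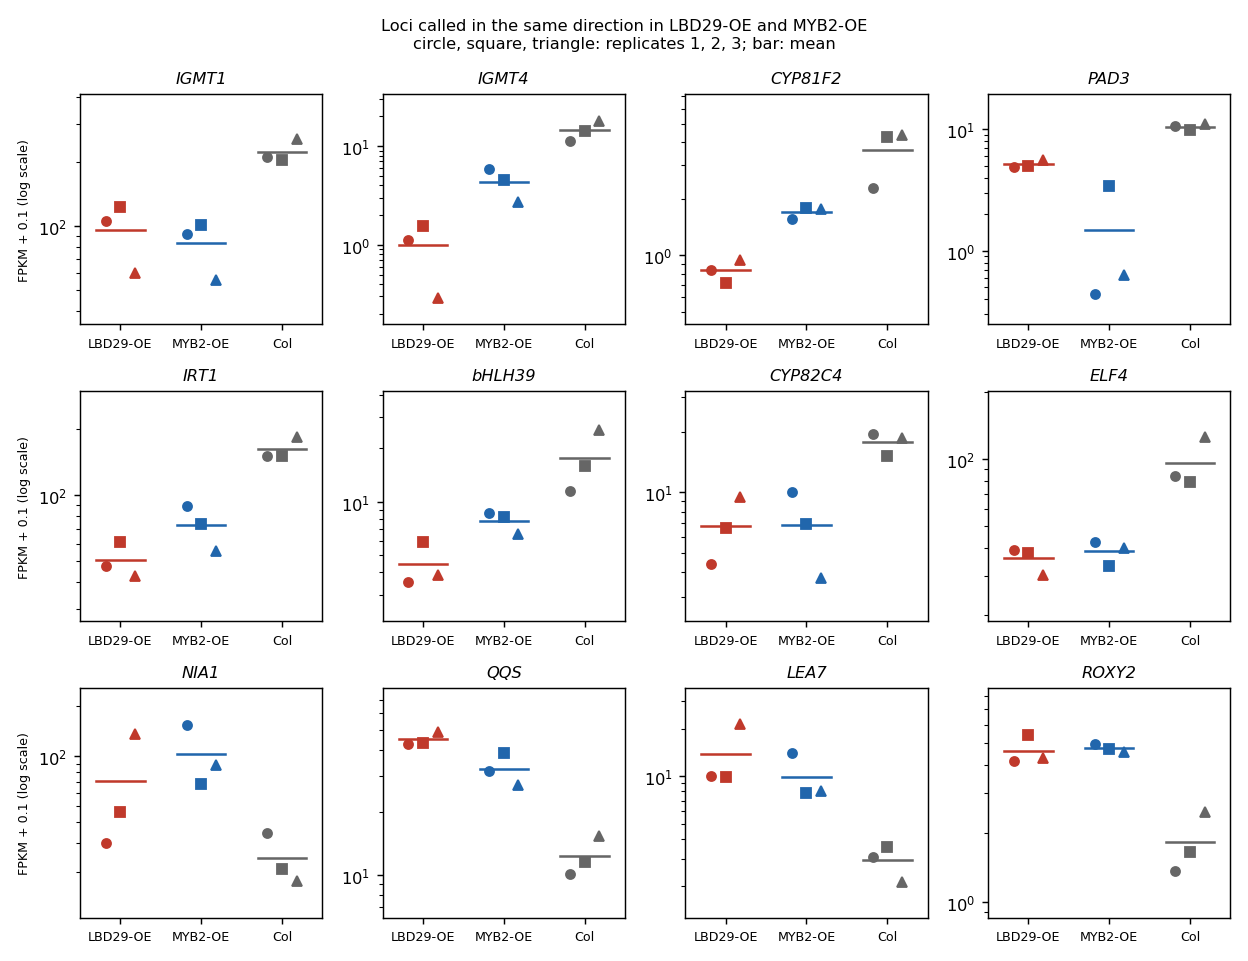
FPKM + 0.1 on a log scale in each library for 8 loci lower in both lines (IGMT1 to ELF4) and 4 higher in both (NIA1 to ROXY2), with symbols as in the plot of opposite loci. In 11 of the 12 panels all libraries of both lines lie on one side of Col, and in NIA1 replicate 1 of LBD29-OE lies within Col. Over all 283 loci both lines were clear of Col in 78.8%.

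Further same-direction loci were named by their fold or by a class that changed without replicate 2. QQS, a gene known only in Arabidopsis that affects starch and nitrogen allocation, had 42.5, 43.2 and 48.9 FPKM in LBD29-OE, 31.6, 38.7 and 26.9 FPKM in MYB2-OE, and 9.94, 11.4 and 15.3 FPKM in Col. COL5, a CONSTANS-like factor, was higher in both, from 34.6 to 56.4 FPKM in LBD29-OE and from 54.1 to 68.0 FPKM in MYB2-OE, against 20.7 to 23.2 FPKM in Col. Without replicate 2 its log2 ratio of LBD29-OE to Col was 0.82, under 2-fold. All libraries of both lines were above Col in these genes, as they were in 65 of the 86 loci higher in both. LBD29-OE was above MYB2-OE in every library for QQS, as it was in 25 of the 283 loci (8.83%). The difference in QQS was not called, at 0.47 ± 0.20 (SE; limma, adjusted p = 0.157).

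Another 4 loci named by the same rule were lower in both. SUFE2, which activates cysteine desulfurase, had 9.86, 11.1 and 11.3 FPKM in LBD29-OE, 8.13, 9.63 and 6.55 FPKM in MYB2-OE, and 25.2, 26.3 and 33.1 FPKM in Col. SLAH1, an anion channel subunit that acts in chloride loading of the xylem, had 18.7, 17.8 and 11.4 FPKM in LBD29-OE, 13.0, 29.5 and 9.24 FPKM in MYB2-OE, and 48.1, 44.7 and 48.3 FPKM in Col. GLP9, a germin-like protein, ranged from 2.78 to 4.45 FPKM in LBD29-OE and from 2.13 to 4.33 FPKM in MYB2-OE, against 8.92 to 14.0 FPKM in Col. PDF2.1, a defensin, ranged from 2.26 to 14.8 FPKM in LBD29-OE and from 2.88 to 4.48 FPKM in MYB2-OE, against 18.9 to 23.1 FPKM in Col. The lines lay below Col in all 4, and both lines were clear of Col in 133 of the 159 loci lower in both. None of the 4 was called between the lines by limma, against 11.0% of the same-direction loci.

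Loci with a transcription factor family in the deposited tables made up 25 of the 283, 11 higher in both, 10 lower in both, 3 lower in LBD29-OE and higher in MYB2-OE, and 1 in the reverse pattern. The NAC family, with 5 loci, was the one present in every class: NAP was higher in both, NAC096 lower in both, NAC6 and NAC047 were lower in LBD29-OE and higher in MYB2-OE, and CUC3 had the reverse pattern. The 3 MADS factors were AGL14, higher in both, and AGL20 and AGL46, lower in both. CBP60G, a calmodulin-binding activator of salicylic acid synthesis, was the only one of 16 matched defence genes listed for both, and it was under 1 FPKM in every library of every group. Its log2 ratio of MYB2-OE to Col was -0.87 without replicate 2, under 2-fold.

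Several lists had matched genes in one table or the other and none in both, though no list holds every gene of its function. Heat and chaperone genes had 8 of 15 matched members in the LBD29-OE table and 1 in the MYB2-OE table. The listed name HSP22 was not matched, and ATHSP22.0 was lower in both lines, at -1.97 in LBD29-OE and -1.84 in MYB2-OE. Outside the list, the HSP20-like AT4G21870 was lower in both and AT5G37670 higher in both. Triterpene and sterol genes had 1 in the LBD29-OE table and 5 in the MYB2-OE table, of 13 matched. Phosphate and sulfate genes had 0 in the LBD29-OE table and 4 in the MYB2-OE table, of 22 matched, and jasmonate genes had 1 and 4 of 19. Outside these lists, the jasmonate ZIM-domain gene JAZ4 was lower in both, at -1.43 in LBD29-OE and -1.33 in MYB2-OE. LUP1, a lupeol synthase, was also lower in both, at -1.53 and -1.39. The phosphate transporter PHT1;9 had opposite directions, as given above. For auxin and lateral root genes, 5 of 41 were in the LBD29-OE table and 6 in the MYB2-OE table, and LBD29 itself was the only one in both. A locus that a table does not list may have missed a threshold or may not have been measured, and the difference between the lines was not tested for these lists.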

How the data were processed

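Roots of 8-day-old dark-grown seedlings were sequenced as 3 libraries per genotype, and groups follow the genotype labels. The authors deposited 1 table per line against Col with FPKM per library, the log2 fold change, and the Q-value (adjusted p-value) of each called locus, per the file headers. The build was TAIR10 per the submitters' processing notes. For the aligner, counter and test, names were not given in the sources used here. Every listed locus had an absolute log2 above 1 and a Q under 0.001. Depth is unknown from FPKM, so no counting interval is given, and 3 libraries per group limit the precision. Col values were identical between the tables.

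Loci were joined by locus name. Direction classes used the authors' log2, and recomputed classes used mean FPKM plus 0.1 and a 2-fold change in each line. LBD29-OE was compared with MYB2-OE with limma 3.58.1 in R 4.3.3 on log2(FPKM + 1), with trend, over 9 libraries and with Benjamini-Hochberg adjustment over the 283 loci. The test was checked on simulated data. Gene positions and promoters came from RefSeq TAIR10.1, in which 282 loci were found. The files hold no coordinates.

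Members and gene lists were chosen with earlier results of these data known. Named genes were LBD29 and MYB2, and, among loci with a symbol and a highest group mean of at least 10 FPKM, the 8 highest and 8 lowest in both lines by their smaller fold, opposite loci up to 12 per class, 8 per direction of the direct test, and 8 whose class changed without replicate 2. Up to 4 loci per list were added. Alternatives were other pseudocounts, a floor of 1 FPKM, 6 libraries only, no trend, a replicate block, each library left out, and replicate 2 of both lines left out.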

Additional observations from a re-analysis of the deposited data

How the results depend on the processing

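Class counts depended on the pseudocount and on single libraries. With a pseudocount of 1, 19 loci were at least 2-fold higher in both lines, 56 lower in both, 4 lower in LBD29-OE and higher in MYB2-OE, and 2 the reverse. With 0.1 and a floor of 1 FPKM, 56 were higher in both. Leaving out each library in turn, with 0.1, gave 59 to 75 loci higher in both, 111 to 139 lower in both, 16 to 24 lower in LBD29-OE and higher in MYB2-OE (16 without Col replicate 3), and 3 to 11 the reverse (3 without LBD29-OE replicate 2, 6 without LBD29-OE replicate 3). Without replicate 2 of both lines 3 loci had the reverse pattern.

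In the direct comparison, same-direction loci higher in LBD29-OE numbered 2 to 19 and those lower 12 to 20 when each library was left out. They were 2 and 15 with the 6 libraries of the lines alone, 14 and 19 without replicate 2 of both lines, and 6 and 17 with the replicate block. The numbers did not pair the libraries, as same-numbered LBD29-OE and MYB2-OE libraries had correlations of deviations of -0.09, 0.10 and -0.12. Without LBD29-OE replicate 2, and without replicate 2 of both lines, the differences reversed to -0.58 and -0.28 for RBCS3B, -0.35 and -0.050 for RBCS2B, -0.31 and -0.047 for RBCS1B, and -0.19 and -0.13 for CAB3. Without LBD29-OE replicate 1 they were 2.25 for RBCS3B, 2.13 for RBCS2B, 1.76 for RBCS1B and 2.13 for CAB3. Uncalled differences of 7 named loci changed sign in 13 further cases. PRR9 was -0.12 without replicate 2 of both lines. With each library left out, the others ranged from -0.24 to 0.063 for CYP71A12, -0.32 to 0.31 for CYP82C4, -0.21 to 0.012 for ELF4, -0.064 to 0.50 for IGMT1, -0.059 to 1.08 for PDF2.1 and -0.31 to 0.48 for SLAH1. The remaining values of the 42 named loci under the 15 alternatives kept their direction, with 579 the same, 19 no longer called, 4 newly called, and 6 differences of opposite loci moved beyond their spread with a pseudocount of 0.1. The spread shared by the libraries was estimated from the 283 listed loci alone. Causes were not tested. Loci under 1 FPKM have the least certain folds, and the unknown depth limits what can be said of them.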
